A study of Mus musculus with 62 samples.

Results

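Tmem176b, Tmem176a, Abtb2, Naprt, Apod and Atp9a are 6 genes grouped because their values were judged to rise early in the muscle of mice carrying a cachexia-inducing melanoma. They are 6 of the 47643 gene symbols measured, and they were chosen for higher values in the cachectic group at 2 or 4 weeks, so the values of that group at those weeks are given here as a description with no test. All 6 were found, and all 6 passed the filter on low values (1 TPM or more on average). At 6 and 8 weeks, which the choice did not use, 5 of them passed the test as higher in the cachectic group than in both other groups. Abtb2 goes against the description: its mean in the cachectic group was highest at 2 weeks and lower again at 4 weeks, and the clearest gap was to a group of tumour-bearing mice without cachexia in which Abtb2 was low.

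The muscle was the tibialis anterior, a fast-twitch leg muscle, from female mice aged 2 months. The study followed 3 groups: CAC mice had received melanoma cells that cause cachexia (loss of muscle and fat tissue driven by a tumour), NCAC mice had received melanoma cells that do not, and Con mice had a mock injection. Muscle was taken 2, 4, 6 and 8 weeks after injection. Each group had 5 libraries at each week, except CAC at 8 weeks with 7, which gives 62 libraries in 12 groups. The sample labels give the strain as C57BL6/J, whereas the series' design text gives NCI Ath/nude, an athymic mouse that lacks mature T cells; which of these is right cannot be told from the sources used here, and no allele or other treatment is named for any group. The labels name no melanoma line and do not say how many tumours or cell clones stand behind a group.

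The 6 genes share no pathway. TMEM176A and TMEM176B are related membrane proteins with 4 membrane-spanning stretches, best known from dendritic cells and macrophages, where they sit on intracellular vesicles; the pair is encoded side by side. Apolipoprotein D is a secreted lipocalin that binds small lipids such as arachidonic acid and is known from nerve, fibroblasts and other connective tissue cells. ATP9A is a P4-type ATPase, a family whose members move phospholipids from one leaflet of a membrane to the other, and it works on endosomes. NAPRT carries out the first step of the Preiss-Handler route, which leads from nicotinic acid to NAD. ABTB2 carries ankyrin repeats and a BTB domain, a fold through which many proteins bind cullin 3 ubiquitin ligases.

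Tmem176b (chr6:48833818-48841496, minus strand) and Tmem176a (chr6:48840919-48847071, plus strand) run in opposite directions on mouse chromosome 6 of GRCm38. Their start ends overlap by 578 bases in the GENCODE M21 annotation. Abtb2 lies at chr2:103566310-103718423 on the plus strand. Atp9a lies at chr2:168634438-168742409, Naprt at chr15:75890956-75894481 and Apod at chr16:31296192-31314808, all on the minus strand. All 6 are annotated as protein-coding. In the RefSeq promoter table for GRCm38.p6, which held 5 of the 6 genes, the outermost start of Tmem176b and the nearest start of Tmem176a point away from each other with 108 bases between them. That stretch is shown because these genes moved together, the Apod window because Apod had the largest change at 6 weeks, and the Abtb2 window because it held the only motif match among the 11 windows of the members; capitals mark that match.

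Tmem176b to Tmem176a, chr6:48841375-48841482, plus strand: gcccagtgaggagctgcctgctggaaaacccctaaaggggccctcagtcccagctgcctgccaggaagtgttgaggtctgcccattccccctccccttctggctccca
Apod, the 250 bases before the start, chr16:31314809-31315058, minus strand: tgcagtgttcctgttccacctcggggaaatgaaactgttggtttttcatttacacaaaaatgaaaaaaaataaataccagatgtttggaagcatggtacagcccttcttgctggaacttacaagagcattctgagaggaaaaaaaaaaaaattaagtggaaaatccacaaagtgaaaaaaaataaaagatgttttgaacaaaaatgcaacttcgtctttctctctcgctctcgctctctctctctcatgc
Abtb2, the 250 bases before the start, chr2:103566060-103566309, plus strand: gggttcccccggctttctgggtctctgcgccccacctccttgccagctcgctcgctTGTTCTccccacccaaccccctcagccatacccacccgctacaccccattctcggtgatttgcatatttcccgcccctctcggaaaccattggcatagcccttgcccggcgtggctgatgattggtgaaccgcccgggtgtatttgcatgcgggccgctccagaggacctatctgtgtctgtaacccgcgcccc

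The motifs looked for on both strands were TTCNNNGAA (bound by STAT factors), TTGCNNAA (C/EBP factors), AGAACA (a glucocorticoid receptor half-site) and GTAAACA (FOXO factors). Over the 250 bases before every start in the table (32851 windows), these letters occurred in 7.02%, 9.56%, 16.1% and 3.17% of windows, in that order. The match in Abtb2 is the half-site read on the opposite strand, TGTTCT, at 194 to 189 bases before the start. No window of the other 4 genes held one of these motifs, which says only that the letters are not there.

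The table held expression as TPM, a level per transcript length in which each library sums to 1000000. Depth is not stated; the step between low values put it at about 45800000 to 53500000 reads a library (median 48200000), with 82.6% to 85.8% of the low values within 0.05 of a whole read. The markers of muscle fibres fitted the labelled tissue, with 68760 to 132900 TPM summed over 8 genes in every library. Of the melanocyte markers, Mitf, which other cells also express, was at 2.82 to 13.5 TPM in every library, and Tyr, Mlana and Pmel were close to absent: Tyr was at 0 in 59 of 62 libraries, Mlana reached at most 0.421 TPM and Pmel at most 0.872 TPM. In Con muscle 3 libraries (2 weeks, replicates 1 and 2; 4 weeks, replicate 3) held over 100 TPM of the liver gene Alb. The sixth-week NCAC replicate 4 had the highest share of its TPM in mitochondrially encoded genes, 61.1%. Con replicate 5 came close at 2 weeks (58.3%) and at 8 weeks (58.9%). CAC libraries at 6 and 8 weeks held 33.5% to 41.5%, against 39.9% to 61.1% in the NCAC and Con libraries of the study. The eighth-week CAC replicate 3 had 3252 TPM of Hba-a1, a haemoglobin chain, against 46.5 to 462 TPM in the other 6. Many genes were higher in CAC muscle on this scale: the median log2 change of the 11107 genes kept was 0.13, 0.11, 0.38 and 0.46 against Con at 2, 4, 6 and 8 weeks. The change of each member against Con is therefore also given relative to that median.

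Tmem176b was raised in CAC muscle from 2 weeks on and approached its final level by 6 weeks. At 2 weeks it had 10.5, 10.5, 19.4, 19.3 and 18.7 TPM in CAC muscle, against 7.72, 6.80, 8.35, 9.21 and 10.8 TPM in NCAC muscle and 8.61, 6.38, 8.57, 8.24 and 4.95 TPM in Con muscle. At this week 3 CAC libraries stood well above all others of that week, and the other 2 lay above every Con library but below the highest NCAC library. At 4 weeks the CAC libraries had 21.1, 30.7, 21.8, 28.0 and 23.7 TPM, against 5.99, 6.69, 5.93, 4.72 and 6.62 TPM in NCAC muscle and 7.57, 5.84, 14.2, 5.56 and 7.97 TPM in Con muscle. From this week on no CAC library overlapped any of the 40 NCAC and Con libraries of the whole study, whose highest value, 14.2 TPM, was one of the Con libraries with over 100 TPM of Alb. The share of all genes that part in this way from all 40 libraries was not counted, so the gap is a description only.

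At 6 weeks Tmem176b had 59.4, 44.9, 47.6, 54.6 and 35.9 TPM in CAC muscle, against 6.51, 6.89, 8.78, 7.10 and 8.65 TPM in NCAC muscle and 9.10, 6.63, 5.83, 6.65 and 7.25 TPM in Con muscle. At 8 weeks the CAC libraries ran over 27.8, 60.0 and 70.7 TPM (lowest, median, highest), against 5.22, 5.45, 5.33, 7.21 and 5.72 TPM in NCAC muscle and 7.18, 8.07, 5.29, 7.71 and 3.68 TPM in Con muscle. The lowest CAC library was the one rich in Hba-a1. In limma's test on log2(TPM + 1) across all genes, Tmem176b rose by 2.60 ± 0.20 (log2, SE) against Con at 6 weeks (adjusted p = 3.58e-15) and by 2.92 ± 0.18 at 8 weeks (adjusted p = 1.19e-18). Against NCAC the changes were 2.51 ± 0.20 (adjusted p = 1.47e-14) and 3.00 ± 0.18 (adjusted p = 3.13e-19). Mean TPM was 6.83 times and 8.63 times that of Con at these weeks, and the change relative to the median gene was 2.23 and 2.46.

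Tmem176a, at a lower level, followed the same course. At 2 weeks it had 2.78, 3.33, 5.57, 4.79 and 5.92 TPM in CAC muscle, against 1.94, 1.90, 2.25, 2.35 and 3.03 TPM in NCAC muscle and 3.38, 2.73, 2.35, 2.13 and 1.18 TPM in Con muscle. The groups overlapped at this week through the same 2 CAC libraries that were low in Tmem176b. At 4 weeks the CAC libraries had 5.14, 9.81, 7.16, 8.00 and 6.88 TPM, against 1.87, 1.80, 1.52, 1.56 and 2.04 TPM in NCAC muscle and 2.40, 2.17, 3.97, 1.51 and 1.95 TPM in Con muscle. They no longer overlapped.

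At 6 weeks Tmem176a had 18.9, 13.5, 15.3, 19.3 and 11.7 TPM in CAC muscle, against 2.06, 2.45, 2.37, 1.54 and 2.76 TPM in NCAC muscle and 2.52, 2.10, 1.66, 1.50 and 1.73 TPM in Con muscle. At 8 weeks the CAC libraries ran over 10.3, 20.4 and 22.6 TPM (lowest, median, highest), against 1.87, 1.39, 1.55, 1.83 and 1.85 TPM in NCAC muscle and 2.44, 2.77, 1.72, 2.06 and 1.14 TPM in Con muscle. Every CAC library was far above both references. The log2 change against Con was 2.52 ± 0.18 at 6 weeks and 2.71 ± 0.17 at 8 weeks (SE; limma, adjusted p = 6e-16 and 5.37e-19). Against NCAC it was 2.36 ± 0.18 and 2.85 ± 0.17 (adjusted p = 4.39e-15 and 5.17e-20). Relative to the median gene the change against Con was 2.14 and 2.25.

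**Figure D1:**
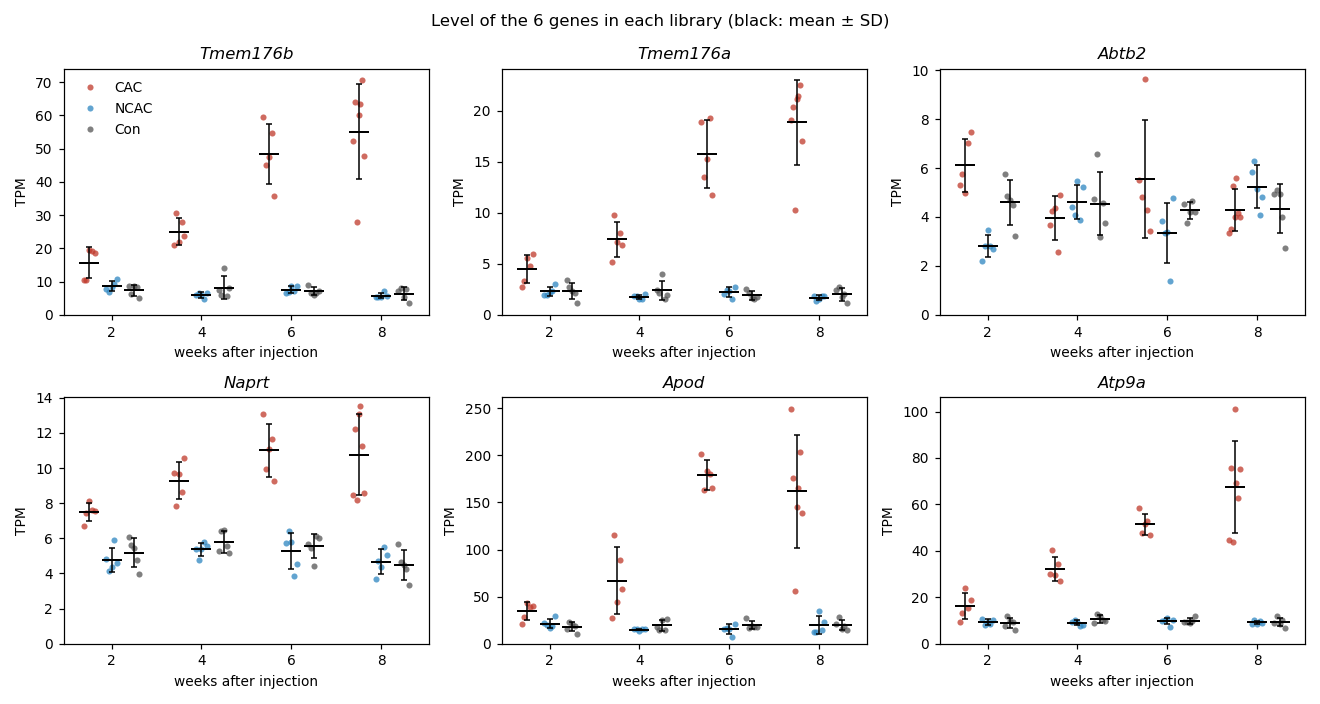
TPM of each of the 6 genes (vertical axis, linear from 0) against weeks after injection, with CAC in red, NCAC in blue and Con in grey. Each point is a library and black marks give the mean ± SD; CAC points separate from the other groups by 4 weeks in every panel but that of Abtb2, with 1 Apod library at 27.5 TPM still close to the Con range.

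The proportion of the paired genes varied far less than their levels. Tmem176b stood at 2.33 to 4.62 times Tmem176a in TPM over the 62 libraries, with a median of 3.24. In CAC muscle the ratio was 3.53 ± 0.38 at 2 weeks, 3.44 ± 0.42 at 4 weeks, 3.09 ± 0.18 at 6 weeks (SD, n = 5 each) and 2.90 ± 0.18 at 8 weeks (SD, n = 7). The CAC ratios at 8 weeks, at most 3.13, all lay below those at 2 weeks, at least 3.16. At 8 weeks it was 3.44 ± 0.51 in NCAC and 3.18 ± 0.34 in Con muscle (SD, n = 5 each), and these ranges overlapped that of CAC. Deviations of log2(TPM + 1) from the group means went together, with Pearson's r of 0.88 and Spearman's rho of 0.82 over 62 libraries that share one TPM scale each (r = 0.95 in the 22 CAC libraries, r = 0.81 in the other 40). The library kit marks strand, but how reads in the 578 shared bases were assigned is not given in the sources used here, so some reads of one gene may be counted for the other.

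**Figure D2:**
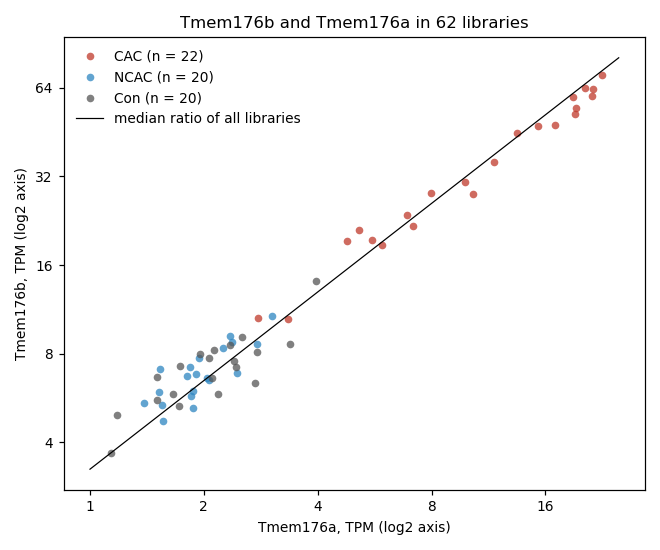
Tmem176b (vertical) against Tmem176a (horizontal), both in TPM on log2 axes, for the 22 CAC (red), 20 NCAC (blue) and 20 Con (grey) libraries. The line marks the median ratio of 3.24, along which the CAC libraries extend from the NCAC and Con range to 22.6 TPM of Tmem176a and 70.7 TPM of Tmem176b.

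Apod had the largest change of the 6 genes at 6 weeks and was unevenly raised before. At 2 weeks it had 20.7, 28.0, 42.8, 39.3 and 40.5 TPM in CAC muscle, against 22.0, 19.8, 16.7, 18.8 and 29.6 TPM in NCAC muscle and 15.7, 23.1, 21.1, 19.2 and 10.8 TPM in Con muscle. Of the CAC libraries 3 exceeded all others and 2 lay within their range. At 4 weeks the CAC libraries had 27.5, 116, 44.8, 88.9 and 58.4 TPM, against 16.0, 15.3, 13.6, 15.2 and 15.2 TPM in NCAC muscle and 17.2, 14.2, 25.4, 14.1 and 26.3 TPM in Con muscle. The CAC libraries were far apart, yet the lowest of them was still above every NCAC and Con library of that week.

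At 6 weeks Apod had 202, 163, 184, 180 and 166 TPM in CAC muscle, against 15.4, 17.0, 15.8, 6.83 and 21.4 TPM in NCAC muscle and 27.2, 16.4, 18.5, 18.0 and 18.0 TPM in Con muscle. The CAC libraries had drawn together again, at 179 ± 15.6 TPM, against 15.3 ± 5.31 TPM in NCAC and 19.6 ± 4.28 TPM in Con muscle (SD, n = 5 each). At 8 weeks they ran over 56.4, 166 and 249 TPM (lowest, median, highest), against 12.5, 12.7, 34.6, 15.0 and 23.0 TPM in NCAC muscle and 21.0, 28.0, 16.1, 19.3 and 14.2 TPM in Con muscle. The lowest was again the library rich in Hba-a1, and all 7 still exceeded every NCAC and Con library. Against Con, Apod rose by 3.14 ± 0.29 (log2, SE) at 6 weeks and by 2.90 ± 0.27 at 8 weeks (limma, adjusted p = 3.53e-12 and 1.2e-12), which is 9.11 and 8.21 times the Con mean TPM. Against NCAC it rose by 3.54 ± 0.29 and 2.98 ± 0.27 (adjusted p = 5.21e-14 and 4e-13). Relative to the median gene the change against Con was 2.76 and 2.44.

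Atp9a had a higher mean in CAC muscle at each successive week. At 2 weeks it had 9.20, 13.2, 23.8, 15.4 and 19.0 TPM in CAC muscle, against 10.5, 8.07, 9.38, 8.40 and 10.4 TPM in NCAC muscle and 7.81, 11.8, 10.0, 9.46 and 6.05 TPM in Con muscle. One CAC library lay inside the range of the references and 4 lay above it. At 4 weeks the CAC libraries had 30.2, 40.2, 29.5, 34.5 and 27.2 TPM, against 9.39, 10.3, 9.31, 7.83 and 7.95 TPM in NCAC muscle and 8.84, 12.9, 11.8, 10.2 and 9.73 TPM in Con muscle. The gap was then wider than the spread within any group.

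At 6 weeks Atp9a had 58.3, 47.7, 51.5, 53.0 and 46.9 TPM in CAC muscle, against 9.71, 10.4, 11.1, 7.38 and 10.2 TPM in NCAC muscle and 9.39, 9.35, 8.87, 9.71 and 11.8 TPM in Con muscle. At 8 weeks the CAC libraries ran over 43.8, 69.2 and 101 TPM (lowest, median, highest), against 8.40, 10.2, 8.70, 9.75 and 9.07 TPM in NCAC muscle and 9.11, 11.8, 8.63, 10.4 and 6.83 TPM in Con muscle. NCAC and Con muscle stayed near 9 to 10 TPM on average at 6 and 8 weeks while the CAC libraries spread out. Against Con, Atp9a rose by 2.28 ± 0.17 (log2, SE) at 6 weeks and by 2.69 ± 0.16 at 8 weeks (limma, adjusted p = 1.8e-15 and 5.71e-20). Against NCAC it rose by 2.29 ± 0.17 and 2.69 ± 0.16 (adjusted p = 2.02e-15 and 5.17e-20). Relative to the median gene the change against Con was 1.90 and 2.24.

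Naprt had the smallest rise of the 5 genes called at 6 and 8 weeks. At 2 weeks it had 6.70, 7.47, 8.11, 7.59 and 7.55 TPM in CAC muscle, against 4.84, 4.16, 4.38, 5.90 and 4.61 TPM in NCAC muscle and 6.09, 5.62, 5.43, 4.77 and 3.99 TPM in Con muscle. At 4 weeks it had 9.70, 7.84, 9.64, 8.65 and 10.6 TPM in CAC muscle, against 5.42, 4.79, 5.38, 5.78 and 5.55 TPM in NCAC muscle and 5.26, 6.41, 6.45, 5.58 and 5.17 TPM in Con muscle. Naprt was the one member for which all 5 CAC libraries at 2 weeks lay above all 40 NCAC and Con libraries of the study, whose highest value was 6.45 TPM. This held at 4, 6 and 8 weeks as well, but only at 6 weeks after scaling each library by median-of-ratios size factors. The highest Con value was then 7.26, and the lowest CAC values were 6.17, 7.11, 7.95 and 5.88 at 2, 4, 6 and 8 weeks. The share of all genes that part in this way from all 40 libraries was not counted. Naprt was also chosen on its values at 2 or 4 weeks, so nothing is read from this separation.

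At 6 weeks Naprt had 13.1, 9.93, 11.1, 11.7 and 9.25 TPM in CAC muscle, against 5.76, 6.43, 5.81, 3.87 and 4.56 TPM in NCAC muscle and 5.70, 5.42, 4.42, 6.16 and 6.03 TPM in Con muscle. At 8 weeks the CAC libraries ran over 8.17, 11.3 and 13.5 TPM (lowest, median, highest), against 3.70, 4.71, 4.40, 5.54 and 5.04 TPM in NCAC muscle and 5.67, 4.67, 4.49, 4.28 and 3.32 TPM in Con muscle. The CAC libraries at these weeks covered about the same range. Against Con, Naprt rose by 0.87 ± 0.12 (log2, SE) at 6 weeks and by 1.09 ± 0.11 at 8 weeks (limma, adjusted p = 1.11e-07 and 1.59e-11). Against NCAC it rose by 0.94 ± 0.12 and 1.03 ± 0.11 (adjusted p = 1.51e-08 and 6.3e-11). Relative to the median gene the change against Con was 0.50 and 0.63, and after scaling each library by median-of-ratios size factors it was 0.48 and 0.63 with adjusted p = 0.00068 and 1.62e-06.

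Abtb2 showed no lasting rise. At 2 weeks it had 5.30, 5.78, 4.96, 7.04 and 7.47 TPM in CAC muscle, against 2.20, 2.82, 3.48, 2.80 and 2.70 TPM in NCAC muscle and 5.74, 4.85, 4.70, 4.48 and 3.20 TPM in Con muscle. The CAC libraries lay above every NCAC library but overlapped the Con libraries, and NCAC muscle had the lowest mean of the 12 groups, 2.80 ± 0.46 TPM (SD, n = 5). At 4 weeks it had 3.66, 4.25, 4.37, 2.55 and 4.91 TPM in CAC muscle, against 4.40, 4.08, 5.47, 3.89 and 5.22 TPM in NCAC muscle and 4.72, 6.56, 3.17, 4.55 and 3.75 TPM in Con muscle. The groups overlapped throughout, with the CAC mean of 3.95 TPM below the means of 4.61 TPM in NCAC and 4.55 TPM in Con muscle.

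At 6 weeks Abtb2 had 5.52, 4.84, 9.65, 4.29 and 3.43 TPM in CAC muscle, against 3.82, 3.34, 3.37, 1.40 and 4.77 TPM in NCAC muscle and 4.53, 3.74, 4.19, 4.66 and 4.21 TPM in Con muscle. At 8 weeks the CAC libraries ran over 3.34, 4.01 and 5.61 TPM (lowest, median, highest), against 5.85, 6.30, 5.15, 4.10 and 4.81 TPM in NCAC muscle and 4.92, 5.11, 4.95, 3.99 and 2.75 TPM in Con muscle. The log2 change against Con was 0.25 ± 0.18 at 6 weeks (SE; limma, adjusted p = 0.215; 95% interval -0.11 to 0.61) and -0.01 ± 0.16 at 8 weeks (adjusted p = 0.961; 95% interval -0.34 to 0.32). Relative to the median gene these were -0.13 and -0.46.

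Against NCAC, Abtb2 passed the test at 6 weeks, with a log2 change of 0.58 ± 0.18 (SE; limma, adjusted p = 0.00379), while the groups overlapped. The lowest NCAC value, 1.40 TPM, belonged to the library with 61.1% mitochondrial TPM; without it the change was 0.38 with adjusted p = 0.0529. After rescaling by size factors the change was 0.20 with adjusted p = 0.331, and the exact permutation test of mean TPM gave p = 0.0635 (two-sided). At 8 weeks the change against NCAC was -0.25 ± 0.16 (limma, adjusted p = 0.173). After rescaling it was -0.64 with adjusted p = 0.000704, and against Con -0.42 with adjusted p = 0.0237, so that Abtb2 fell relative to the bulk of genes at 8 weeks, a call that the unscaled TPM does not make.

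Counted over the 6 genes, 5 rose against Con at 6 weeks, where 60.7% of all genes kept were called higher, and the same 5 rose at 8 weeks, where 69.4% were. Against NCAC all 6 were called higher at 6 weeks (64.2% of all genes) and 5 at 8 weeks (67% of all genes). With most genes called, the share of members called is no result in itself; the size places them more closely. Among the 11107 genes ordered by log2 change against Con at 8 weeks, Tmem176b was number 19, Apod 20, Tmem176a 27, Atp9a 31, Naprt 707 and Abtb2 9628 from the top. In unscaled TPM no CAC library overlapped a Con library in 2 members at 2 weeks (Tmem176b and Naprt), where this held for 1.94% of genes. The same was true of 5 members at 4 weeks, against 2.3% of genes. Against NCAC the counts were 2 members at 2 weeks (Abtb2 and Naprt; 2.62% of genes) and 5 at 4 weeks (8.92% of genes); the weeks up to 4 were used in choosing the genes, so nothing is read from these counts. At 6 and 8 weeks the same 5, in unscaled TPM, did not overlap Con (44.3% and 38% of genes) or NCAC (43.1% and 40.1% of genes).

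**Figure D3:**
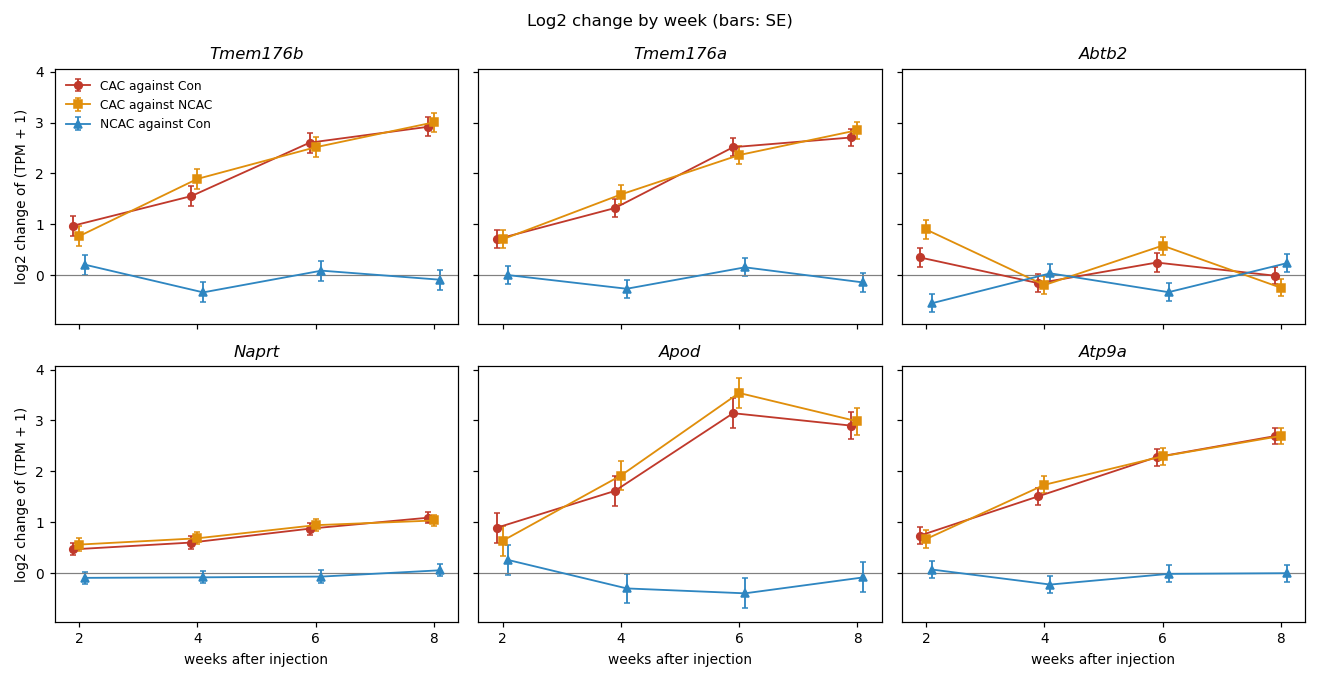
Log2 change of (TPM + 1) with SE (vertical) by week (horizontal) for CAC against Con (red circles), CAC against NCAC (orange squares) and NCAC against Con (blue triangles). Both CAC lines climb at each week for Tmem176b (to 2.92 and 3.00 at 8 weeks), Tmem176a, Naprt and Atp9a, while those of Apod peak at 3.14 and 3.54 at 6 weeks; for Abtb2 the red line stays between -0.16 and 0.35.

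The 5 genes departed at different points of their final rise. The difference in mean TPM between CAC and Con muscle at 2, 4 and 6 weeks came to 36.8%, 56.0% and 87.1% of the 8-week difference for Naprt. For Tmem176b it came to 17.1%, 34.6% and 84.9%, and for Tmem176a to 12.6%, 29.7% and 82.2%. Apod reached 11.5%, 33.5% and 112%, and Atp9a 12.2%, 37.2% and 71.6%. Naprt had the largest early share. After rescaling by size factors its log2 change against Con was 0.34, 0.49, 0.48 and 0.63 at 2, 4, 6 and 8 weeks. Its step from 4 to 6 weeks thus depends on the scale. The 112% of Apod rests on the 8-week CAC library rich in Hba-a1, without which it came to 99.6%. Without that library the 6-week share was 81.6% for Naprt, 77.6% for Tmem176b, 75.8% for Tmem176a and 67.1% for Atp9a. The values at 2 and 4 weeks are a description, since the genes were chosen on them. For Abtb2 the differences were 1.51, -0.60, 1.28 and -0.06 TPM at 2, 4, 6 and 8 weeks, with no 8-week difference to set them against.

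**Figure D4:**
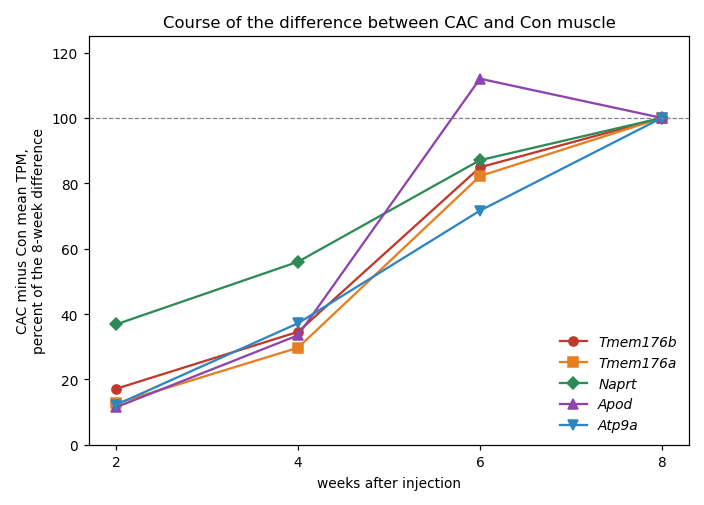
Difference in mean TPM between CAC and Con muscle as a percent of the 8-week difference (vertical) by week (horizontal) for Tmem176b, Tmem176a, Naprt, Apod and Atp9a. The dashed line marks 100%; Naprt starts highest at 36.8% and Apod stands at 112% at 6 weeks, or 99.6% without the CAC library rich in Hba-a1 at 8 weeks.

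No member was shown to keep rising between 6 and 8 weeks. In CAC muscle the log2 change at 8 weeks against 6 weeks was 0.34 ± 0.16 for Atp9a (SE; limma, adjusted p = 0.594; unadjusted p = 0.0358; 95% interval 0.02 to 0.65). It was 0.15 ± 0.18 for Tmem176b (95% interval -0.22 to 0.52) and 0.23 ± 0.17 for Tmem176a (95% interval -0.10 to 0.57). It was -0.05 ± 0.11 for Naprt (95% interval -0.27 to 0.18), -0.25 ± 0.27 for Apod (95% interval -0.80 to 0.29; -0.02 without the library rich in Hba-a1) and -0.26 ± 0.16 for Abtb2 (95% interval -0.59 to 0.07). None of the 6 passed limma's test, and 3 of all genes (0.027%) did, with 880 at an unadjusted p under 0.05. The change against Con was not shown to differ between these weeks for any member either, with the largest difference 0.41 ± 0.23 for Atp9a (limma, adjusted p = 0.998); 0 of all genes (0%) passed, with 375 at an unadjusted p under 0.05. The intervals leave room for further change in either direction for all but Atp9a, whose interval covers increases only.

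Ordered by mean, the CAC weeks ran 2, 4, 6, 8 from low to high for Tmem176b, Tmem176a and Atp9a. For Apod and Naprt the sixth week had the highest mean, an order that rests on the CAC library rich in Hba-a1: 179 ± 15.6 TPM at 6 weeks and 162 ± 59.9 TPM at 8 weeks for Apod, and 11.0 ± 1.50 TPM at 6 weeks and 10.8 ± 2.31 TPM at 8 weeks for Naprt (SD, n = 5 and n = 7). Without that library the 8-week means were 179.5 ± 41.2 TPM for Apod and 11.2 ± 2.20 TPM for Naprt (SD, n = 6), no longer below those at 6 weeks. For all 5 genes the CAC libraries of 6 and 8 weeks overlapped, and the means differed by less than the SD at 8 weeks. Without the library rich in Hba-a1 they still overlapped, but the means of Tmem176b, Tmem176a and Atp9a differed by more than that SD. At 8 weeks these were then 59.7 ± 8.41, 20.3 ± 1.97 and 71.45 ± 18.55 TPM (SD, n = 6), against 48.5, 15.7 and 51.5 TPM at 6 weeks. Between 2 and 4 weeks the CAC libraries did not overlap for Tmem176b, Atp9a and Abtb2, the last of these with lower values at 4 weeks (0.333% of all genes were fully above and 0.333% fully below). Between 4 and 6 weeks they did not overlap for Tmem176b, Tmem176a, Apod and Atp9a, all higher at 6 weeks (11.7% of all genes).

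Melanoma without cachexia was not shown to move any of the 6 genes. None passed limma's test for NCAC against Con at 2 weeks (0.162% of all genes called), 4 weeks (0%), 6 weeks (0%) or 8 weeks (0.009%); at an unadjusted p under 0.05, 281, 143, 118 and 166 of all genes were counted at these weeks. The Con libraries at 2 and 4 weeks are those the choice of genes had used. Tmem176b averaged 8.57 ± 1.51, 5.99 ± 0.79, 7.59 ± 1.06 and 5.79 ± 0.82 TPM in NCAC muscle at 2, 4, 6 and 8 weeks, against 7.35 ± 1.62, 8.22 ± 3.48, 7.09 ± 1.23 and 6.39 ± 1.86 TPM in Con muscle (SD, n = 5 each). The group means crossed from week to week. The widest gap was that of Abtb2 at 2 weeks, with a log2 change of -0.55 ± 0.18 (SE; limma, adjusted p = 0.692; unadjusted p = 0.00311), where the exact permutation test of mean TPM, which takes this gene alone, gave p = 0.0159 (two-sided; smallest possible p = 0.00794).

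Drift with time outside cachexia did not pass limma's test for any of the 6 genes. Con muscle at 8 weeks against 2 weeks gave log2 changes of -0.19 to 0.14 over the 6 (0.27% of all genes called). NCAC muscle gave 0.71 ± 0.18 for Abtb2 (SE; limma, adjusted p = 0.258), with all 5 libraries at 8 weeks above all 5 at 2 weeks (0.441% of all genes), and -0.49 ± 0.20 for Tmem176b (adjusted p = 0.888), with 0% of all genes called and 546 at an unadjusted p under 0.05. In the same comparison Tmem176a gave -0.28 (limma, unadjusted p = 0.1215), with all 5 libraries at 8 weeks (at most 1.87 TPM) below all 5 at 2 weeks (at least 1.90 TPM). The exact permutation test of mean TPM gave p = 0.00794 for it (two-sided, unadjusted). That is the smallest possible p for 5 against 5 libraries, which any gene without overlap reaches. The share of all genes fully below was not counted. After rescaling by size factors the Tmem176a values overlapped, with up to 2.06 at 8 weeks and 1.98 or more at 2 weeks. With a weight for each group's spread the Abtb2 change passed (adjusted p = 0.0163). NCAC at 2 weeks, the group with the lowest mean of Abtb2, thus had lower values than NCAC muscle at 8 weeks as well as a lower mean than both other groups of its own week.

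The other genes of each member's family or pathway were counted from lists compiled for the tissue. Of 12 other P4-ATPases and partner proteins kept, 10 rose and 0 fell against Con at 6 weeks (60.7% of all genes called higher), and 11 rose and 0 fell at 8 weeks (69.4%; median log2 change 0.49 and 0.60, against 0.38 and 0.46 over all genes). After rescaling, 4 and 6 of them were called higher and 0 lower. Of all 11107 genes kept, rescaling called 1872 higher and 2014 lower against Con at 6 weeks. At 8 weeks it called 2761 higher and 2690 lower. These counts are the background for every rescaled list count below. Atp8b1, a flippase of the plasma membrane, averaged 5.02 ± 1.09 TPM in CAC muscle (SD, n = 7) and 1.07 ± 0.16 TPM in Con muscle (SD, n = 5) at 8 weeks, a log2 change of 1.52 (limma, adjusted p = 2.43e-15). Atp9b, the closest relative of Atp9a, averaged 12.1 ± 1.92 TPM in CAC muscle and 7.17 ± 1.07 TPM in Con muscle at 6 weeks (SD, n = 5 each; log2 change 0.67, adjusted p = 4.26e-05). Atp10d and Atp8b2 rose at both weeks (log2 changes of 0.48 and 0.49 at 6 weeks, 0.57 and 0.64 at 8 weeks), but Atp8b2 at 6 weeks did not pass after rescaling (adjusted p = 0.0614).

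The list of lipocalins and apolipoproteins held 12 other genes kept, among them Bsg, which belongs to neither family. Of these 12, 6 rose and 0 fell at 6 weeks (60.7% of all genes called higher), and 5 rose and 1 fell at 8 weeks (69.4%). The median log2 change was 0.45 and 0.54. Bsg was 1 of the 6 at 6 weeks (log2 change 0.33, limma, adjusted p = 0.0205). After rescaling 3 were higher and 0 lower at 6 weeks, and 3 were higher and 3 lower at 8 weeks. Lcn2, an iron-siderophore binding lipocalin of the acute-phase response, averaged 57.5 ± 73.2 TPM in CAC muscle and 0.278 ± 0.055 TPM in Con muscle at 6 weeks (SD, n = 5 each; log2 change 4.85, limma, adjusted p = 1.73e-08). Apoe, a lipid carrier made by macrophages among other cells, averaged 149 ± 45.4 TPM in CAC muscle (SD, n = 7) and 34.9 ± 4.58 TPM in Con muscle (SD, n = 5) at 8 weeks (log2 change 2.01, adjusted p = 5.77e-08). Clu, a secreted chaperone also called apolipoprotein J, rose by 1.41 at 6 weeks and 1.58 at 8 weeks, and Apoc1 rose by 1.99 at 6 weeks (adjusted p = 0.0101), which did not pass after rescaling (adjusted p = 0.0504). Apol6 fell, with 7.40 ± 4.16 TPM in CAC muscle and 19.3 ± 7.76 TPM in Con muscle at 8 weeks (log2 change -1.37, adjusted p = 3.6e-05).

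Of 18 other genes of NAD synthesis and use, 9 rose and 1 fell at 6 weeks (60.7% of all genes called higher), and 10 rose and 3 fell at 8 weeks (69.4%; median log2 change 0.24 and 0.39). This balance depends on the scale, as it does over all genes. After rescaling 3 were higher and 4 lower at 6 weeks, and 3 higher and 5 lower at 8 weeks. Nadk, which phosphorylates NAD to NADP, averaged 19.6 ± 2.89 TPM in CAC muscle (SD, n = 7) and 9.64 ± 0.88 TPM in Con muscle (SD, n = 5) at 8 weeks (log2 change 0.95, limma, adjusted p = 7.52e-11). Sirt1, an NAD-consuming deacetylase, rose by 1.05 at 8 weeks, and Nnmt, which methylates nicotinamide, rose by 0.91 at 6 weeks (adjusted p = 9.79e-05). Parp2, an NAD-consuming poly(ADP-ribose) polymerase, rose by 0.53 at 6 weeks and 0.58 at 8 weeks but did not pass after rescaling (adjusted p = 0.148 and 0.232). Nmrk2, the muscle kinase that makes NAD precursors from nicotinamide riboside, fell, with 60.6 ± 88.8 TPM in CAC muscle and 189 ± 53.1 TPM in Con muscle at 8 weeks (log2 change -3.10, adjusted p = 4.42e-05), and its groups overlapped.

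Of 26 other BTB proteins and cullin 3, 15 rose and 2 fell at 6 weeks (60.7% of all genes called higher), and 16 rose and 2 fell at 8 weeks (69.4%; median log2 change 0.34 and 0.39, below those of all genes). After rescaling 3 were higher and 8 lower at 6 weeks, and 4 higher and 8 lower at 8 weeks. Over all genes the balance also shifted, to 1872 higher and 2014 lower at 6 weeks and 2761 higher and 2690 lower at 8 weeks. Btbd3 averaged 13.9 ± 3.30 TPM in CAC muscle (SD, n = 7) and 5.70 ± 0.61 TPM in Con muscle (SD, n = 5) at 8 weeks (log2 change 1.12, limma, adjusted p = 9.03e-11). Keap1, the cullin 3 adaptor for NRF2, rose by 0.74 at 6 weeks and 0.85 at 8 weeks, and Enc1 by 0.72 and 0.96. Btbd9 rose by 0.68 at 6 weeks and Kctd5 by 0.62 at 8 weeks, but neither passed after rescaling (adjusted p = 0.0597 and 0.0525). The membrane-protein family that TMEM176 proteins resemble, MS4A, had 1 gene kept: Ms4a4d averaged 8.24 ± 4.70 TPM in CAC muscle (SD, n = 7) and 3.16 ± 0.65 TPM in Con muscle (SD, n = 5) at 8 weeks (log2 change 1.03, adjusted p = 2.24e-05), and it rose by 0.95 at 6 weeks.

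Markers of other cell types in the muscle moved in the same weeks, and in bulk tissue fewer or more cells of a type and less or more RNA per cell cannot be told apart. Summed over 12 macrophage markers, CAC libraries held 43.0 to 103, 36.3 to 156, 118 to 166 and 119 to 323 TPM at 2, 4, 6 and 8 weeks. Con libraries held 31.7 to 56.4, 41.7 to 95.2, 40.2 to 63.9 and 51.6 to 114 TPM. NCAC libraries held 58.6 to 116, 45.1 to 63.9, 46.6 to 67.6 and 32.5 to 67.3 TPM. At 2 weeks the NCAC sums thus lay above every Con library, and the highest of them above every CAC library. So in unscaled TPM the CAC sums overlapped those of both references at 2 and 4 weeks and parted from them at 6 and 8 weeks. The parting from Con at 8 weeks depends on the scale. The lowest CAC sum there (119 TPM) came from a library with a size factor of 1.46, the highest Con sum (114 TPM) from one with 1.08. Against Con, 9 and then 10 of the 10 markers kept rose at 6 and 8 weeks and 0 fell (60.7% and 69.4% of all genes called higher). After rescaling 6 of the 10 were called higher and 0 lower at each week. Of all 11107 genes, 1872 were then higher and 2014 lower at 6 weeks, and 2761 higher and 2690 lower at 8 weeks. Among dendritic cell markers, Itgax, Flt3, Xcr1 and Clec9a were close to 0 (at most 0.476, 0.0844, 0.117 and 0.171 TPM in any library). Zbtb46 was at 0.931 to 3.34 TPM, Cd209a reached 2.555 TPM, and Cd74 and the H2 genes reached higher values. Of 5 dendritic cell markers kept, 0 passed at 6 weeks. At 8 weeks 1 rose (Zbtb46, log2 change 0.36, limma, adjusted p = 0.00253) and 1 fell (H2-Ab1, -0.60, adjusted p = 0.049). After rescaling 0 were higher and 4 lower than in Con muscle at 8 weeks. Against NCAC, 1 was higher and 0 lower at 6 weeks and at 8 weeks (64.2% and 67% of all genes called higher). With rescaling this comparison gave 0 higher and 3 lower at 6 weeks, and 0 higher and 0 lower at 8 weeks. Within groups, the macrophage sum had r = 0.23 with Tmem176b, 0.24 with Tmem176a, 0.34 with Apod, 0.00 with Atp9a, -0.16 with Naprt and -0.16 with Abtb2 over 62 libraries. The part of macrophages in the rise of the Tmem176 genes was not tested.

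Fibroblast and fibro-adipogenic progenitor (FAP) markers summed to 491 to 725 TPM in CAC muscle and 288 to 345 TPM in Con muscle at 6 weeks, and to 421 to 895 TPM in CAC and 300 to 502 TPM in Con muscle at 8 weeks. Of the 10 markers 3 rose and 0 fell at each of these weeks (60.7% and 69.4% of all genes called higher); after rescaling 3 were higher and 0 lower at 6 weeks, and 2 higher and 4 lower at 8 weeks. Adipocyte markers summed to 92.0 to 493 TPM in CAC muscle at 6 weeks, against 19.3 to 57.0 TPM in Con muscle. NCAC libraries held 4.31 to 132 TPM at that week and overlapped the CAC libraries. Against Con, 5 of 5 kept rose at 6 weeks and 4 at 8 weeks, or 5 and 3 after rescaling, with 0 falling. Within groups Apod went with the fibroblast sum (r = 0.51 over 62 libraries), and Abtb2, Naprt and Tmem176a with the endothelial sum (r = 0.69, 0.54 and 0.51), libraries sharing one TPM scale each. Endothelial markers had 5 of 8 higher and 1 lower at 6 weeks, and 7 higher and 1 lower at 8 weeks; after rescaling 3 were higher and 2 lower, and then 3 higher and 1 lower. The part of these cells in the members' changes was not tested.

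**Figure D5:**
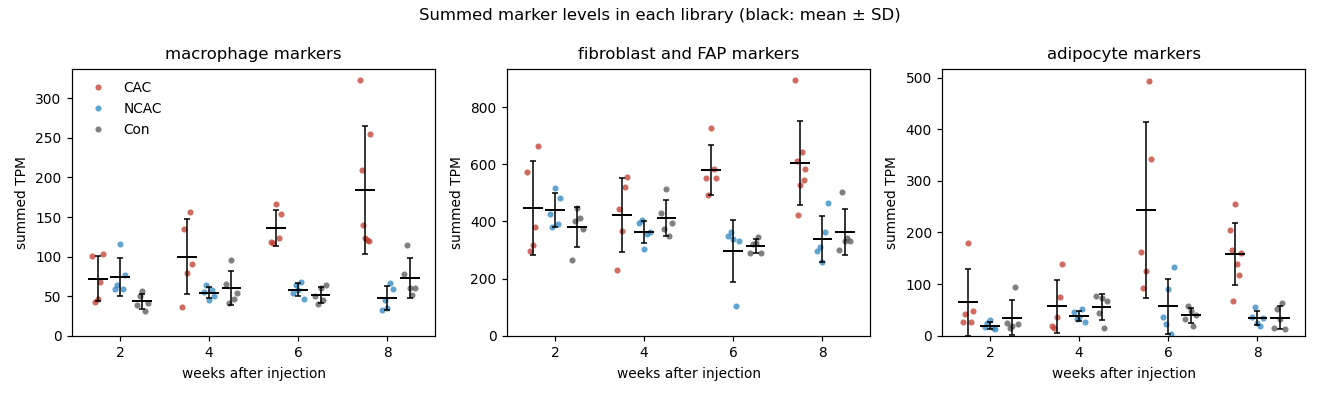
Summed TPM of macrophage, fibroblast and FAP, and adipocyte markers (vertical, linear from 0) by week (horizontal), CAC in red, NCAC in blue, Con in grey. Each point is a library and black marks give the mean ± SD; the macrophage sums of CAC muscle reach 118 to 166 TPM at 6 weeks, above every Con library of that week.

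The remaining marker lists moved less uniformly. Of 7 Schwann cell and nerve markers, 4 rose at 6 weeks and 3 at 8 weeks with 0 falling; both neutrophil markers kept (2 of 2) rose at each week. Of 5 liver markers 1 rose at each week, of 2 satellite cell markers 1 rose at 6 weeks and 0 at 8 weeks, and of the 1 melanocyte marker kept (Mitf) 0 rose at 6 weeks and 1 at 8 weeks. Of 8 muscle fibre markers 1 rose and 0 fell at 6 weeks (60.7% of all genes called higher), and 3 rose and 1 fell at 8 weeks (69.4%). After rescaling 0 were higher and 3 lower at each week, where all genes were about evenly split between higher and lower. Of the other lists in this group, 1 Schwann cell marker was then higher at each week, the neutrophil markers gave 2 and 1, and no liver, satellite cell or melanocyte marker passed.

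Beyond shared group means, the members differed in how they varied from mouse to mouse within groups. Over 62 libraries the deviation of Apod went with that of Tmem176a (r = 0.71, rho = 0.66) and Tmem176b (r = 0.64, rho = 0.64). Atp9a went with Tmem176a (r = 0.61) and Tmem176b (r = 0.58). Naprt and Apod, in contrast, went together weakly (r = 0.23), as did Abtb2 with Tmem176b (r = 0.06). Each value is a description across libraries that share a scale.

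The genes nearest in course, by the root mean square difference of group means on the log2(TPM + 1) scale over 12 groups among 10429 named genes with the other members left out, recurred between members. For Tmem176a they were Grrp1 (0.07), Csf2rb2 (0.15) and Csf2rb (0.18), and for Tmem176b the same genes (0.12, 0.21 and 0.21). Each Tmem176 gene lay at 0.11 from the other, and Atp9a at 0.12 from Tmem176a. For Atp9a the nearest genes outside the 6 were Grrp1 (0.12), Scgb3a1 (0.16) and Csf2rb2 (0.16), and for Apod Eif4ebp1 (0.17), Csf2rb (0.25) and Csf2rb2 (0.25). Csf2rb encodes the shared signalling chain of the GM-CSF, interleukin-3 and interleukin-5 receptors and Csf2rb2 its near-identical copy, so reads may be split between them; Eif4ebp1 encodes a repressor of cap-dependent translation and Scgb3a1 a small secreted protein. Csf2rb averaged 2.78 ± 0.86, 6.36 ± 3.53, 14.8 ± 3.67 and 17.8 ± 4.45 TPM in CAC muscle at 2, 4, 6 and 8 weeks (SD, n = 5, 5, 5 and 7), against 1.44 ± 0.71, 1.40 ± 0.44, 1.72 ± 0.52 and 1.72 ± 0.56 TPM in Con muscle (SD, n = 5 each). Grrp1 averaged 6.42 ± 2.26, 11.0 ± 2.68, 21.0 ± 5.68 and 23.6 ± 5.89 TPM in CAC muscle, against 3.02 ± 0.24, 3.07 ± 0.77, 2.66 ± 0.63 and 3.16 ± 0.53 TPM in Con muscle (SD, with the same n).

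For Naprt the nearest were Edn1 (0.09), which encodes the vasoconstrictor endothelin 1, Anxa6 (0.11), a calcium-dependent membrane-binding protein, and Ip6k1 (0.12), an inositol hexakisphosphate kinase. Anxa6 averaged 137 ± 11.7, 179 ± 33.2, 223 ± 43.7 and 226 ± 14.9 TPM in CAC muscle at 2, 4, 6 and 8 weeks (SD, n = 5, 5, 5 and 7), against 93.4 ± 21.3, 111 ± 6.36, 112 ± 8.97 and 108 ± 29.2 TPM in Con muscle (SD, n = 5 each). In unscaled TPM its CAC mean, like that of Naprt, changed little between 6 and 8 weeks. For Abtb2 the nearest were Zfp462 (0.13), Cpeb4 (0.13), which binds cytoplasmic polyadenylation elements, and Ptpn4 (0.13), a tyrosine phosphatase. Those distances are large beside the small course of Abtb2 itself, whose group means deviate by 0.23 from their average. Of the 18 pairs of a member and a near gene, among which some genes recur, 15 were also found after rescaling.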

How the data were processed

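The deposited table gives gene expression as TPM, computed by the authors, for 62 libraries of tibialis anterior muscle; the libraries were made with a TruSeq stranded mRNA kit, per the labels' protocols, and the genome build was mm10, per the submitters' processing notes. The aligner, the counter and the handling of overlapping genes are not stated in those sources. Each column sums to 1000000 TPM.

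The filter on low values kept 11107 of 47643 genes, those averaging 1 TPM or more across the libraries. Values were taken as log2(TPM + 1), which understates the change of low genes, and fitted with limma 3.58.1 (R 4.3.3) with one mean per group over all 62 libraries, empirical Bayes moderation with a trend, and Benjamini-Hochberg adjustment over all genes kept at 0.05. SE and 95% intervals are on that scale. Single genes were also tested by an exact two-sided permutation test of mean TPM (scipy 1.17.1). The fit was tested on simulated data. Other steps used Python 3.11.15, numpy 2.4.6, pandas 2.3.3 and matplotlib 3.10.9. Depth was estimated from the step between low values and is approximate; no count test was run. The closest pair of libraries within a group differed by a root mean square of 0.261 on the log2 scale, against a median of 0.368, so none was taken for a repeat deposit. The labels call the libraries biological replicates.

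The members and the gene and marker lists (5 family or pathway lists, 11 marker lists) were chosen with earlier results of these data known. The genes named are the 6 members, the 3 genes nearest to each in course, and up to 4 called genes per list with the smallest adjusted p at 6 and 8 weeks; 1 of these is not reported here. CAC values at 2 and 4 weeks entered the choice of members and were not tested. Alternatives were another pseudocount, no filter, median-of-ratios rescaling, a fit of the compared weeks only, a block for the replicate number, weights per group and leaving out each replicate; 2 more were chosen after seeing the data, leaving out the libraries over 100 TPM of Alb and leaving out the mitochondrially encoded genes. Sequences are from RefSeq, GRCm38.p6, and gene positions from GENCODE M21.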

Additional observations from a re-analysis of the deposited data

Results flagged for a closer look

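Of 72 sets of values (6 genes in 12 groups), 4 had a library whose distance to the next one took up an unusual share of the group's range by Dixon's criterion; chance gives about 1 in 20. Tmem176b had 14.2 TPM in Con replicate 3 at 4 weeks, above 5.56 to 7.97 TPM in the other 4 libraries. That library held 142 TPM of Alb, and its Tmem176a was also the highest of NCAC and Con muscle, at 3.97 TPM. Tmem176b had 7.21 TPM in NCAC replicate 4 at 8 weeks, above 5.22 to 5.72 TPM in the other 4. Apod had 27.2 TPM in Con replicate 1 at 6 weeks, above 16.4 to 18.5 TPM in the other 4. Atp9a had 11.8 TPM in Con replicate 5 at 6 weeks, above 8.87 to 9.71 TPM in the other 4. All 4 values lie in NCAC or Con muscle and are below every CAC value of the same gene at 6 and 8 weeks.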

How the results depend on the processing

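Over 1416 values of the members under other settings, 1405 kept their side of the threshold, with the same direction wherever the test was passed, 3 no longer passed, 8 newly passed and 0 called values reversed; the 5 genes other than Abtb2 kept every call for CAC against Con and CAC against NCAC at 6 and 8 weeks. Abtb2 changed calls, as printed in the report: after rescaling, CAC against Con at 8 weeks was -0.42 and CAC against NCAC was 0.20 at 6 weeks and -0.64 at 8 weeks; without the mitochondrially encoded genes, CAC against NCAC at 8 weeks was -0.49 (adjusted p = 0.0142); with weights per group, NCAC at 8 against 2 weeks was 0.71. In the exact permutation test, as log2 ratios of means, Abtb2 gave 0.73 for CAC against NCAC at 6 weeks (p = 0.0635), -0.72 for NCAC against Con at 2 weeks (p = 0.0159) and 0.91 for NCAC at 8 against 2 weeks (p = 0.00794); for the last comparison Tmem176b gave -0.57 (p = 0.0159) and Tmem176a -0.44 (p = 0.00794), all unadjusted. Leaving out 1 replicate, Abtb2 for CAC against NCAC at 6 weeks ran from 0.38 to 0.71.

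Genes called fell with rescaling: 3886 for CAC against Con at 6 weeks (1872 higher, 2014 lower), against 7103 unscaled (6741 higher, 362 lower); 5451 at 8 weeks (2761 higher, 2690 lower), against 8272 (7707 higher, 565 lower); 4728 for CAC against NCAC at 6 weeks (2315 higher, 2413 lower), against 7522 (7131 higher, 391 lower). CAC against NCAC at 8 weeks had 2805 higher and 2697 lower, against 7446 and 560 unscaled. For NCAC against Con at 2 weeks (18 genes) the counts were 6 with a pseudocount of 0.1, 117 with no filter, 0 with the compared weeks only and 0 without the libraries over 100 TPM of Alb; at 8 weeks (1 gene) 0, 2 and 0 in the first 3 settings, and 2 each after rescaling and without mitochondrially encoded genes. For CAC at 8 against 6 weeks (3 genes) the counts were 0 with that pseudocount, 32 with no filter, 5 after rescaling, and 0 each with the compared weeks only and with weights. For Con at 8 against 2 weeks (30 genes) they were 188 with no filter, 4 with the compared weeks only and 0 without the Alb libraries. For NCAC at 8 against 2 weeks (0 genes) they were 2 after rescaling and 8 with weights. Leaving out 1 replicate gave 0 to 39 genes for NCAC against Con at 2 weeks, 0 to 4 at 8 weeks, 0 to 15 for CAC at 8 against 6 weeks, 0 to 43 for Con and 0 to 3 for NCAC at 8 against 2 weeks. The cause of these shifts was not tested.

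The replicate numbers did not pair the libraries: same-numbered libraries of different groups had a median correlation of -0.01 over 330 pairs, and 8 of 62 libraries correlated best with their own number. With the replicate block, 2 genes were called for NCAC against Con at 2 weeks, other counts stayed within 1.5 times, and no member changed its call. All levels are shares of a library's total, so a change in total RNA per muscle is not measured; at the estimated depth the lowest member value corresponds to about 113 reads.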
